A study of Mus musculus with 23 samples.

Results

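The 10 genes described here are the immediate early genes and the genes of the AP-1 transcription factor that were measured in B16F10, a mouse melanoma cell line: Fos, Fosb, Fosl1, Jun, Junb, Jund, Atf3, Egr1, Ier2 and Dusp1. They were taken by symbol from a table of 47643 genes, and all 10 were found. The study compared cells with and without editing of Nr2f6, a nuclear receptor gene, in a dish, in whole tumors and in tumor cells purified from tumors. Each of the 9 groups had 2 libraries, 18 in all.

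Bulk tumors were B16F10 tumors grown in mice, and their RNA came from the whole tissue. Sorted tumor cells came from such tumors that were chopped and digested with collagenase D for 1 hour at 30 °C, after which stromal cells were removed with magnetic beads. Cultured cells were the same line in a dish. Within each sample type, the control libraries carry the genotype WT, and the libraries of sg492 and sg495 carry the genotype NR2F6 KO. The edited cells had received Cas9 protein and 1 of the 2 guide RNAs, carrying a fluorescent dye, and were sorted for that dye. They are described as sorted cells and not as single clones, so a group can hold edited and unedited alleles. The labels do not say whether the 2 libraries of a group came from separate tumors or cultures, so the p-values measure the spread between these libraries, which may be technical.

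Immediate early genes are transcribed within minutes of a signal, without new protein synthesis, when kinases of the MAPK family act on transcription factors that already sit on their promoters. The Fos and Jun proteins pair through a leucine zipper to form AP-1, which binds DNA and drives a later set of genes, while Dusp1 encodes a phosphatase that switches MAPK off again. In many tissues this group is known to respond when the tissue is taken apart into single cells.

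The values are TPM, a measure of transcript abundance in which the authors scaled each gene for its length and each library to the same total. The total reads of a single library are not contained in TPM, so its depth is unknown here beyond a common range for all libraries in the labels, and no counting interval was given. In bulk tissue a lower TPM can mean fewer cells of a type or less RNA per cell, and these cannot be told apart.

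The label check came first. Nr2f6, the edited gene, stood at 25.83 and 25.24 TPM in control bulk tumors, at 22.31 and 23.31 TPM with sg492 and at 17.22 and 15.76 TPM with sg495. In sorted cells it stood at 20.32 and 17.73, 19.84 and 25.7, and 10.6 and 12.18 TPM, and in cultured cells at 31.88 and 32.9, 26.55 and 31.5, and 18.55 and 22.43 TPM, in the same order. Its log2 difference between sg495 and control was -0.64 ± 0.11 (SE) in cultured cells, -0.60 ± 0.09 in bulk tumors and -0.69 ± 0.16 in sorted ones. By the limma test described below, the adjusted p was 0.0213, 0.0865 and 0.126. All tested genes of chromosome 8, where Nr2f6 lies, had medians of -0.33, -0.25 and -0.34 in the same order. With sg492 the differences of Nr2f6 were -0.16, -0.16 and 0.24, so the libraries labelled sg492 did not have less Nr2f6 RNA in sorted cells. Marker genes followed the sample types. The summed level of 12 leukocyte markers ran from 461 to 1002 TPM in bulk tumors and, after sorting, from 6.97 to 15.96 TPM, and that of 9 fibroblast markers from 357 to 994 TPM and from 3.34 to 6.27 TPM, with Cd3e and Lum at 0 in every sorted library. The 6 endothelial markers summed to between 65.2 and 79.6 TPM in bulk tumors and between 13.95 and 32.2 TPM in sorted cells, with Tek at 0 there. The 8 melanocyte markers, which mark the line itself, summed to between 15286 and 18198 TPM in all 18 libraries. Mitochondrial genes took 2.56% to 8.02% of the TPM.

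The start regions of these genes show which known control sequences they share. RefSeq promoter windows on GRCm38.p6, from 250 bases before the start of transcription to 50 bases after it, were found for 7 of the 10 members: Fos, Fosb, Jun, Junb, Jund, Atf3 and Dusp1. Fosl1, Egr1 and Ier2 had no entry, and the Jund window ends before the start that GENCODE gives the gene. The Atf3 and Dusp1 windows lie inside the bounds that GENCODE gives these genes (chr1:191170296-191218039 and chr17:26505590-26562128). Their starts here are thus those of RefSeq. Each window was searched on both strands for TGACGT, the core of the cAMP response element (CRE) that CREB and ATF proteins bind, for the whole palindrome TGACGTCA, which holds that core, for the AP-1 site TGANTCA, for the CArG box that SRF binds and for TATAAA. The CRE core was present in 3 of the 7 windows, those of Fos, Atf3 and Dusp1, and in 7.51% of all 32851 windows. The whole palindrome was present in the Dusp1 window, against 1.79% of all windows. TATAAA was found in the windows of Fos and Junb, against 13.6% of all windows. In Fos it began 33 bases before the start. In Junb it began at base 1 from the RefSeq start, which lies upstream of the start that GENCODE gives. Neither TGANTCA nor a CArG box was found in the 7 windows, against 7.81% and 1.63% of all windows, which says only that those letters do not stand in these stretches. After the Jun sequence had been read, TGACATCA, a CRE-like site known from the Jun promoter, was searched too: it was present in the Jun window alone among the 7 and in 3.62% of all windows.

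The following stretches show those matches for Fos, Atf3, Dusp1 and Jun, with Fosb, the member that differed most, for comparison. The first 3 carry the CRE core in capitals, which reads ACGTCA where it lies on the other strand. They are the 100 bases before the start of Fos (chr12:85473790-85473889, plus strand), the 100 bases before the start of Atf3 (chr1:191183334-191183433, minus strand) and the bases from 200 to 101 before the start of Dusp1 (chr17:26508573-26508672, minus strand), where the second match is the whole palindrome:
Fos: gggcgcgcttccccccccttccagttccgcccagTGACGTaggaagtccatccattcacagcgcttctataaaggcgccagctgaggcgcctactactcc
Atf3: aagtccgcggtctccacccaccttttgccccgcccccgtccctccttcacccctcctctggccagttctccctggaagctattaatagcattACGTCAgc
Dusp1: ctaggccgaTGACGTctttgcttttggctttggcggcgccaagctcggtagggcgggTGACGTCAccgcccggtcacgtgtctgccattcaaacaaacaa

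The Jun stretch (chr4:95052223-95052322, minus strand) has TGACATCA in capitals, and the Fosb stretch (chr7:19310046-19310145, minus strand) has no match to mark. Both are the 100 bases before the start:
Jun: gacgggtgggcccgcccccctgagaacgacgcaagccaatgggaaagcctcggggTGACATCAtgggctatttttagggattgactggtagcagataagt
Fosb: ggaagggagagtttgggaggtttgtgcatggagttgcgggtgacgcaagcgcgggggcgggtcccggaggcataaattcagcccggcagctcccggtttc

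The first question was how the levels of these genes differed between the 3 sample types. Summed over the 10 members, they took 74.2 to 104 TPM in cultured cells, 139 to 217 TPM in bulk tumors and 996 to 1772 in sorted tumor cells, so the sorted libraries did not overlap the others. Of the 10 members, 9 were higher in all 6 sorted libraries than in all 6 bulk tumors, against 7.09% of the genes tested. Fosl1 was the exception.

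**Figure D1:**
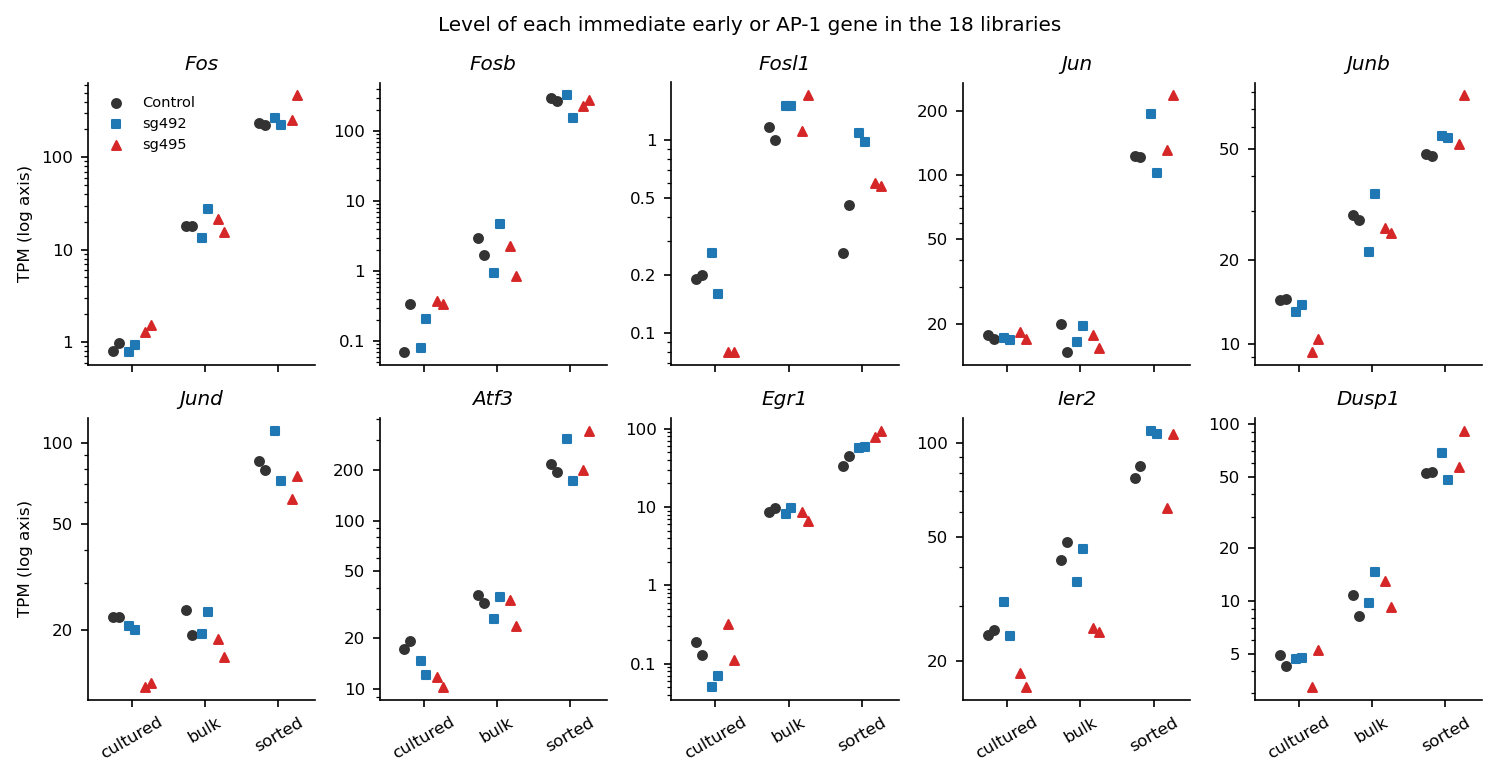
TPM of each of the 10 genes on a log axis, with 1 point per library, grouped by sample type; circles are control, squares sg492 and triangles sg495. All 6 sorted libraries lie above all 6 bulk and all 6 cultured libraries in every panel except Fosl1. Jun, Jund and Ier2 overlap between bulk tumors and cultured cells.

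Of the Fos family, Fosb moved furthest. Fosb, which joins Jun proteins in AP-1, ranged from 0.07 to 0.38 TPM in cultured cells with a median of 0.275, from 0.86 to 4.79 TPM in bulk tumors with a median of 2.0, and from 154.76 to 325.26 TPM in sorted tumor cells with a median of 275. It was close to the lower end of detection in the dish and among the well expressed genes after sorting. Fos, the founding member of the family, ranged from 0.78 to 1.54 TPM in cultured cells with a median of 0.96, from 13.5 to 27.44 TPM in bulk tumors with a median of 18.14, and from 221 to 468 TPM in sorted cells with a median of 244. The 3 sample types did not overlap for either gene. Fosl1, which encodes FRA1, was low throughout, at 0.08 to 0.26 TPM in cultured cells, 1.0 to 1.7 TPM in bulk tumors and 0.26 to 1.09 in sorted cells, and did not pass the filter of a mean of 1 TPM over the 18 libraries. Its sorted libraries overlapped the bulk tumors and cultured cells, and its bulk tumors lay above all cultured libraries.

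Of the Jun family, Jun had the largest step between bulk tumors and sorted cells. Jun ranged from 16.89 to 18.31 TPM in cultured cells with a median of 17.065, from 14.79 to 20.04 TPM in bulk tumors with a median of 17.185, and from 103 to 238 TPM in sorted cells with a median of 127. Jund, the family member that most cells express without stimulation, had a like pattern, with medians of 20.44 TPM in cultured cells, 19.33 TPM in bulk tumors and 77.4 in sorted cells. Junb, often a weaker activator than Jun, stood instead in 3 separate bands, at 9.38 to 14.49 TPM in cultured cells, 21.43 to 34.56 TPM in bulk tumors and 47.45 to 78.11 in sorted cells. Jun and Jund thus had overlapping levels in the dish and in the whole tumor, whereas Junb did not.

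The other 4 members rose in sorted cells as well. Atf3, a stress-induced factor of the same leucine zipper class, had medians of 13.3 TPM in cultured cells, 33.1 TPM in bulk tumors and 208 in sorted cells. Egr1, a zinc finger factor driven by SRF and its ETS partners, ranged from 0.05 to 0.32 TPM in cultured cells, from 6.52 to 9.78 TPM in bulk tumors and from 33.11 to 94.55 in sorted cells. Dusp1, the MAPK phosphatase, had medians of 4.73 TPM in cultured cells, 10.3 TPM in bulk tumors and 55.2 in sorted cells. Ier2, a nuclear protein gene of the early response, had the narrowest steps, with 16.44 to 30.83 TPM in cultured cells, 24.72 to 48.26 TPM in bulk tumors and 61.7 to 110 in sorted cells.

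Sorted tumor cells were then compared with bulk tumors by limma on log2(TPM + 1), with 1 mean per group and the contrast averaged over control, sg492 and sg495. Called genes had an adjusted p (Benjamini-Hochberg, over all genes) below 0.05 and a fold change of 1.5 or more. All 9 members that passed the filter were called higher, where 4.31% of 13152 genes were. Fosb passed the filter mostly through its sorted level, with a mean of 259 TPM there, 2.25 TPM in bulk tumors and 0.237 TPM in cultured cells. The filter used the same values as the test, so the share is a description. The largest log2 fold change was that of Fosb, at 6.40 ± 0.26 (SE, n = 6 libraries per sample type), with a limma adjusted p of 5.252e-10. It was also the highest of all 13152 genes, and ranked 1 in each of the 29 alternative fits.

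Fos, with 3.78 ± 0.17, ranked 4 among all genes. Jun followed with 3.0 ± 0.16, Atf3 with 2.86 ± 0.16, Egr1 with 2.62 ± 0.10 and Dusp1 with 2.39 ± 0.16. Jund rose by 1.95 ± 0.10, Ier2 by 1.29 ± 0.12 and Junb by 1.01 ± 0.11, the last a fold of 2.01. The median of the 9 was 2.62, beside -0.05 for all genes. Each of the 9 was also called in the contrast within control, within sg492 and within sg495, with control values from 0.73 for Junb to 6.45 for Fosb. These contrasts came from the same fit, so the filter and the estimate of the spread still used all 18 libraries.

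Against cultured cells, the same 9 members were called higher in sorted cells, where 14.6% of genes were, and 9 of the 10 members did not overlap, against 18.6% of genes. Fosb at 7.69 ± 0.26, Fos at 7.05 ± 0.17 and Egr1 at 5.68 ± 0.10 on the log2(TPM + 1) scale ranked 1, 2 and 3 among all 13152 genes. Over the 29 alternatives Fosb stayed at rank 1, Fos at rank 2 or 3 and Egr1 between 2 and 6. Their levels in culture were so low that the added 1 TPM holds these values down: the ratio of the median TPM was 254 for Fos and 476 for Egr1. Atf3 differed by 3.96, Dusp1 by 3.48, Jun by 2.99, Jund by 2.09, Junb by 2.07 and Ier2 by 1.93.

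Between bulk tumors and cultured cells, 7 of the 9 were called higher in the tumor, where 15.8% of genes were. Fos, by 3.27 ± 0.17, and Egr1, by 3.05 ± 0.10, differed most. Fosb at 1.29, Atf3 and Dusp1 at 1.10 each, Junb at 1.06 and Ier2 at 0.64 were called with smaller values. Jun, at -0.01 with a 95% interval from -0.36 to 0.34, and Jund, at 0.14 with an interval from -0.07 to 0.36, were not called (limma adjusted p = 0.972 and 0.234). Over the 10 members, 7 had all bulk libraries above all cultured ones, against 20.9% of genes. The call on Fosb was lost under quantile normalization, where its value was 0.35, and that on Ier2 fell below a fold of 1.5 without replicate 2 of sg492, in bulk tumors (0.58) or in cultured cells (0.58). In the contrast within sg495, Fosb (0.87) and Ier2 (0.51) were not called, nor was Ier2 in that within sg492 (0.56). The spread again came from all 18 libraries.

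**Figure D2:**
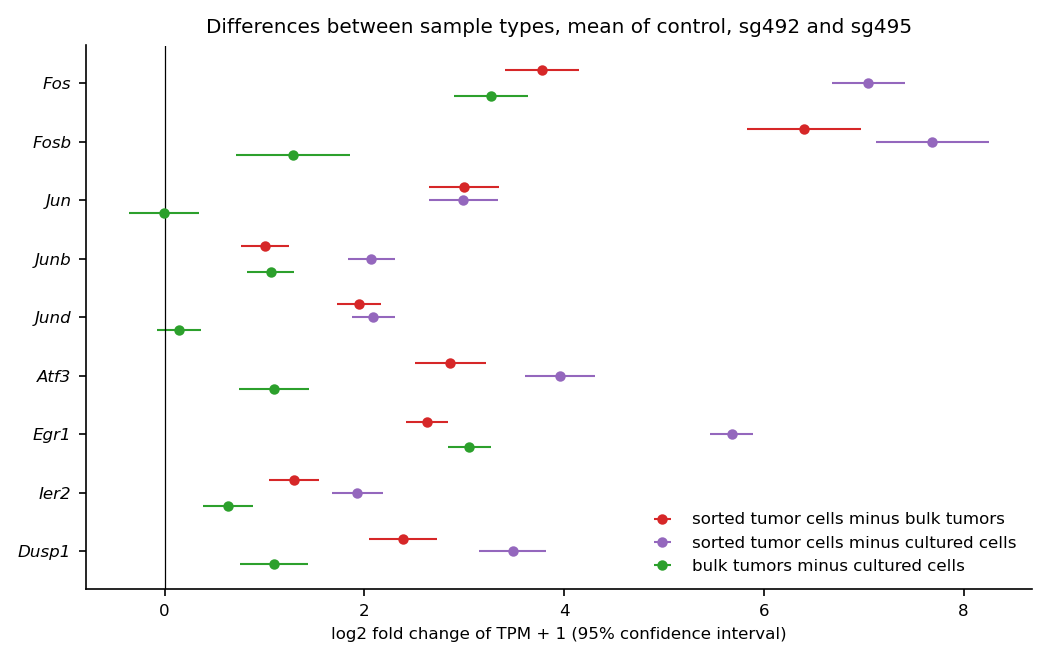
Difference in log2(TPM + 1) for the 9 tested members with 95% confidence intervals: sorted tumor cells minus bulk tumors (red), sorted tumor cells minus cultured cells (purple) and bulk tumors minus cultured cells (green), each the mean over control, sg492 and sg495. Fosb reaches 6.40 and 7.69 in the first pair, while the green intervals of Jun and Jund include 0.

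Sorted cells differ from bulk tumors in 3 ways at once: the stroma was depleted, the tissue was digested, and the cells passed the bead separation. These cannot be told apart in this design. The summed leukocyte and fibroblast markers were lower in every sorted library than in every bulk tumor, while 9 of the 10 members were higher. The endothelial sum in sorted cells came almost wholly from Vwf, at 13.4 to 31.8 TPM, with the other endothelial markers below 1 TPM in every sorted library.

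Within each library, the balance among relatives also differed between sample types. The ratio of Fosb to Fos was 1.05 in the median sorted library, with a range of 0.594 to 1.26, against 0.0995 in bulk tumors and 0.222 in cultured cells. Sorted cells differed from both in a 2-sided exact permutation test on the log ratio of 6 against 6 libraries (p = 0.002165, the smallest this design allows; adjusted p = 0.003896 over the 9 ratio tests). Bulk tumors and cultured cells were not separated by the same exact test (p = 0.0584, adjusted p = 0.0658). The cultured ratio rests on low values, with Fosb at 0.38 TPM at most. It was 0.0875 and 0.347 in the cultured control libraries. In sorted cells the ranges of Fosb and Fos overlapped, and in every bulk tumor Fosb was the lower.

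The ratio of Jun to Junb had a median of 2.56 in sorted cells, 0.65 in bulk tumors and 1.28 in cultured cells. All 3 pairs differed by the exact permutation test (p = 0.002165 for sorted against bulk and for bulk against cultured, 0.004329 for sorted against cultured; adjusted p at most 0.006494). Junb was the more abundant of the 2 in the bulk tumor and Jun the more abundant in the other sample types. Jun to Jund had medians of 1.63, 0.843 and 0.832, with sorted cells above both (exact permutation p = 0.002165 and 0.006494, adjusted p = 0.003896 and 0.008349) and bulk tumors not separated from cultured cells (p = 0.418, also exact, adjusted p = 0.418). These tests pooled the guides. In cultured cells Jun to Jund was 1.49 and 1.33 with sg495 and at most 0.842 in control and sg492. Jun to Junb was 1.95 and 1.62 with sg495 there and at most 1.32 in control and sg492.

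**Figure D3:**
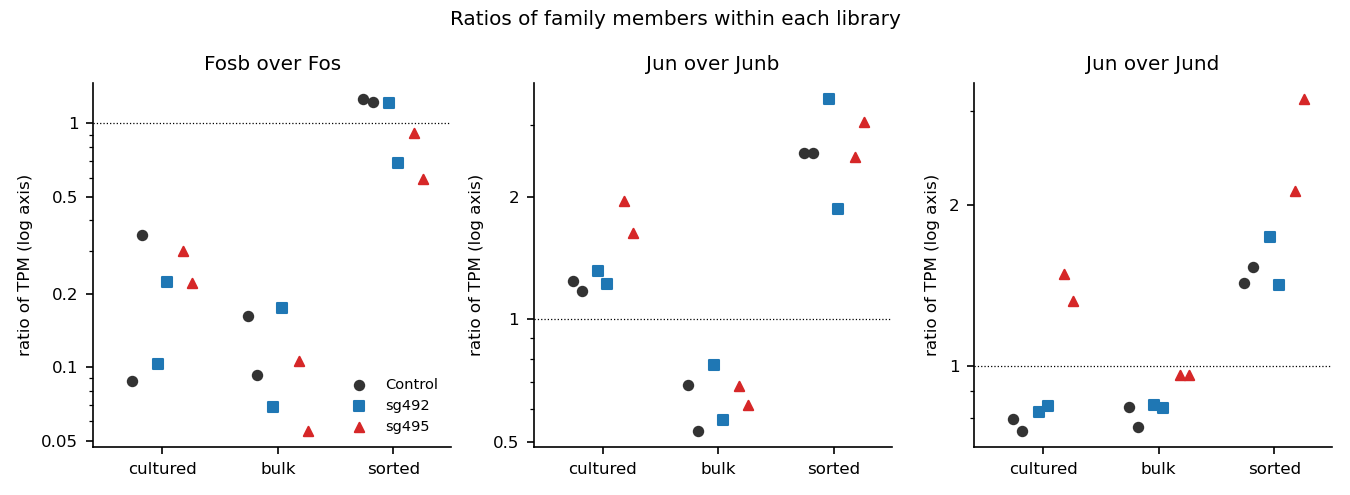
Ratio of TPM of Fosb to Fos, of Jun to Junb and of Jun to Jund in each library on log axes, by sample type and guide; the dotted line marks equal levels. Fosb to Fos reaches 0.594 to 1.26 in sorted cells and at most 0.175 in bulk tumors; in the last panel the 2 cultured sg495 libraries lie at 1.33 and 1.49, above the other 4.

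The other genes of the pathway were taken from 5 lists. Of 24 other primary response genes, 22 were tested between sorted cells and bulk tumors, 16 were called higher and 2 lower (median 1.27). Of all genes, 4.31% were called higher and 9.26% lower. The 6 largest were Klf4 (3.81), a zinc finger factor with a median of 7.585 TPM in bulk tumors and 117 in sorted cells, Cyr61 (2.6), a secreted matricellular protein, the nuclear receptors Nr4a1 (2.12) and Nr4a2 (1.73), Klf2 (1.99) and Egr2 (1.88). Lower in sorted cells were Ctgf at -0.76 and Socs3 at -0.62, both named after their values were seen. Against cultured cells 21 of the 22 were called higher and 1 lower, where 14.6% and 8.99% of all genes were. Between bulk tumors and cultured cells 12 were higher and 1 lower, where 15.8% and 3.95% of all genes were.

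Among the partners of the same leucine zipper class, 4 of 9 were called higher in sorted cells than in bulk tumors and 1 lower. The shares of all genes were 4.31% and 9.26%. Mafk rose by 1.76, Fosl2 by 1.63, Maff by 1.01 and Mafg by 0.63, and Batf3 fell by 1.10 on the log2 scale. Fosl2, which encodes FRA2, had medians of 7.2 TPM in cultured cells, 18.72 TPM in bulk tumors and 58.71 in sorted cells, in contrast to the low level of its relative Fosl1. Of 13 upstream genes (SRF, its ETS partners and MAPK kinases), 1 was called, against 13.6% of all genes in either direction: Srf itself, by 1.28. The RNA of the kinases does not show whether they were active.

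Genes known as AP-1 targets were not called higher in sorted cells than in bulk tumors. Of 9, 7 were tested, none was called higher in sorted cells than in bulk tumors and 5 were called lower, as were 9.26% of all genes: the proteases Mmp3 (-3.67), Mmp13 (-2.16) and Plau (-1.78), the inhibitor Timp1 (-1.59) and cyclin D1, Ccnd1 (-0.79). Mmp3 had a median of 12.3 TPM in bulk tumors, reached 0.08 TPM at most in sorted cells and was listed at 0 in every cultured library. Fibroblasts are a known source of Mmp3 and Timp1, and the fibroblast markers were lower in the same libraries. Their part in the result was not tested. Against cultured cells, Plau alone of the 7 was called, higher by 1.93, where 23.6% of all genes were called in either direction.

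Of 10 heat shock genes, 9 were tested and 2 called higher in sorted cells than in bulk tumors, as were 4.31% of all genes. They were Hspa1b, an inducible HSP70, by 3.25, and its co-chaperone Dnajb1 by 0.83. Hspa1b ranged from 6.57 to 12.47 TPM in bulk tumors and from 38.11 to 300.2 in sorted cells. The spread among sorted libraries was wide for this gene, and the groups did not overlap. Hspa1a, a near-identical copy that can take reads from it, had at most 1.78 TPM in these libraries, so the split between the copies is uncertain.

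**Figure D4:**
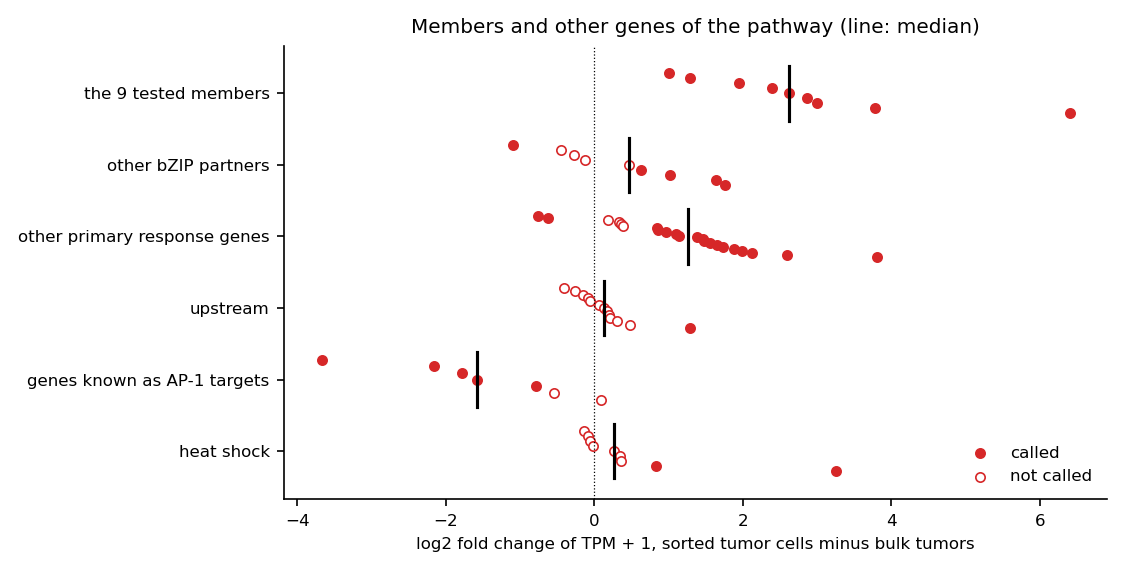
Difference in log2(TPM + 1) between sorted tumor cells and bulk tumors for the 9 tested members and for the tested genes of 5 lists, 1 point per gene; filled points were called, open points were not, and the black line is the median of each row. The medians run from 2.62 for the members and 1.27 for other primary response genes down to -1.59 for genes known as AP-1 targets.

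The sorted libraries of a group differed widely for some members. In sorted sg492 cells Fosb stood at 325.26 TPM in replicate 1 and 154.76 TPM in replicate 2, and Jun at 193.83 and 102.53 TPM. In sorted sg495 cells, replicate 2 was the higher for Fos, at 467.74 TPM against 254.31 TPM, and for Atf3, at 341.84 TPM against 199.67 TPM. Replicate 1 of sorted sg495 also had the highest mitochondrial share, 8.02%, and its part in these differences was not tested.

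Some other genes tracked these levels. Over the 18 libraries, the 5 genes with the highest Pearson r to Fos in log2(TPM + 1) were Nr4a1 (0.994), Btg2 (0.993), Sik1 (0.993), C130013H08Rik (0.992) and Cyr61 (0.991), and to Jun they were H3f3b (0.988), Gabarapl1 (0.988), Zbtb10 (0.984), Frat2 (0.983) and Snai2 (0.983). These values describe the 3 sample types, which all points share, rather than single libraries. With the mean of each sample type removed, the highest r to Fos were those of Hspb8 (0.858), Dusp6 (0.84), Tspan4 (0.826), Ccdc126 (0.824) and Cyb561d2 (0.795). Among the highest to Jun were those of Hspb8 (0.882), Bag3 (0.842), Phf23 (0.842) and Fermt2 (0.822). These genes were picked as the highest from the 13152 filtered genes over 18 libraries. No test was run, and picking from so many genes gives high values by itself. Among the members, Dusp1 was then the closest to both, with 0.733 to Fos and 0.77 to Jun, and Jund was at -0.13 to Fos.

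The second question was whether the guides against Nr2f6 changed these genes within a sample type. Both guides were compared with the same 2 control libraries, so their differences are not independent, and a 2-sided exact permutation test of 2 against 2 cannot go below 0.333. The p-values therefore come from limma across all genes. In sorted tumor cells, Egr1 was the 1 member of 9 called with sg495, where 0.899% of 12899 genes were called. It stood at 33.11 and 44.49 TPM in control, at 55.93 and 58.21 TPM in sg492 and at 78.55 and 94.55 TPM in sg495, with no overlap among the 3. Of all genes, 20.4% had both sg492 libraries above both controls and 17.9% had both sg495 libraries above them. The share with all 3 groups apart was not counted. The log2 difference with sg495 was 1.15 ± 0.16 (SE, n = 2 per group, limma adjusted p = 0.03998), a fold of 2.21.

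Beside it, the summed leukocyte markers of the sorted libraries were 8.39 and 6.97 TPM in control, 7.34 and 11.4 TPM in sg492 and 11.07 and 15.96 TPM in sg495. Of the 12 markers, 9 stayed below 1 TPM in every sorted library, among them Ptprc at 0.15 TPM at most. Cd68 ran from 3.62 to 12.09 TPM and Fcer1g from 1.55 to 4.3 TPM. Cultured cells had these 2 at 1.11 to 3.05 and 0.77 to 1.92 TPM, so the sum does not measure leukocytes alone. The part of these markers in the result was not tested.

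That call was close to the threshold. Leaving out any of the 6 sorted libraries ended it, with limma adjusted p from 0.0747 to 0.174 and values from 0.94 to 1.35. With sg492 the difference of Egr1 was 0.56 ± 0.16 (limma adjusted p = 0.625). Of the other members in sorted cells with sg495, Fos at 0.60, Jun at 0.53, Dusp1 at 0.44 and Junb at 0.41 had both libraries above both controls, as did 17.9% of all genes, and none passed the test. Jund, at -0.28, had both below both controls, as did 31.5% of all genes, and did not pass. Fosb, at -0.15 with an interval from -0.94 to 0.63, and Ier2, at 0.01, did not pass either.

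The difference of the sg495 effect between sample types was tested directly for all members. For Egr1, the sg495 effect in sorted cells exceeded that in bulk tumors by 1.39 ± 0.24 (limma adjusted p = 0.0483) and that in cultured cells by 1.08 ± 0.24 (limma adjusted p = 0.0269). Neither call was firm. The first held in 9 of 27 alternatives (limma adjusted p from 0.0294 to 0.216) and was lost when any 1 of 15 of the 18 libraries was left out, the exceptions being replicate 1 of bulk control, replicate 1 of bulk sg495 and replicate 2 of sorted control. The second held in 20 of 27 and was lost without either cultured control, replicate 2 of cultured sg495, replicate 1 of sorted control or replicate 2 of sorted sg495 (limma adjusted p from 0.07 to 0.113). In bulk tumors Egr1 had stood at 8.5 and 9.77 TPM in control against 8.67 and 6.52 TPM with sg495, and in cultured cells all its levels were at or below 0.32 TPM. At that level the added 1 TPM holds the cultured guide effect near 0, so the second test adds little to the sorted result, and with 0.1 TPM added instead its limma adjusted p was 0.215. Of all genes, 0.122% and 2.51% were called in these 2 tests. No member was called in the third, between bulk tumors and cultured cells, where 1.76% of genes were. There no member reached an unadjusted limma p below 0.05, beside 2012 of 13152 genes that did.

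In cultured cells, 2 of 7 tested members were called with sg495, both lower, where 2.77% of 12007 genes were called and 2.03% were lower. Jund stood at 22.34 and 22.43 TPM in control and at 12.28 and 12.77 TPM with sg495, a difference of -0.79 ± 0.06 (n = 2, limma adjusted p = 0.00216). Atf3 stood at 17.39 and 19.18 TPM in control and at 11.75 and 10.26 TPM with sg495, a difference of -0.69 ± 0.12 (limma adjusted p = 0.0184), and lost the call without either control or either sg495 library (limma adjusted p from 0.0681 to 0.1). Junb, at -0.50 with an adjusted p of 0.0167 by limma, stayed under the fold threshold, and Ier2, at -0.49, had a limma adjusted p of 0.0546. Fos, Jun and Dusp1 did not pass, at 0.35, 0.02 and -0.11.

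Junb, Jund and Ier2 lie on chromosome 8, as Nr2f6 does: Jund at chr8:70698949-70700616, 674 kb from Nr2f6, Ier2 at chr8:84661331-84662852 and Junb at chr8:84974484-84978718, 13279 and 13593 kb from it (GENCODE M21, GRCm38). With sg495, the median log2 difference of chromosome 8 genes was -0.33 in cultured cells, beside 0.01 for the other chromosomes, and 90.7% of 645 chromosome 8 genes lay below 0. In bulk tumors the chromosome 8 median was -0.25 and in sorted cells -0.34. After subtraction of the chromosome 8 median, Jund in cultured cells differed by -0.46 (limma adjusted p = 0.0144), which is under the fold threshold. The same subtraction left Junb at -0.17 and Ier2 at -0.16 in cultured cells. With sg492 the chromosome 8 medians were 0.03 in cultured cells, 0.03 in bulk tumors and 0.02 in sorted cells. Atf3 lies on chromosome 1 and Egr1 on chromosome 18.

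**Figure D5:**
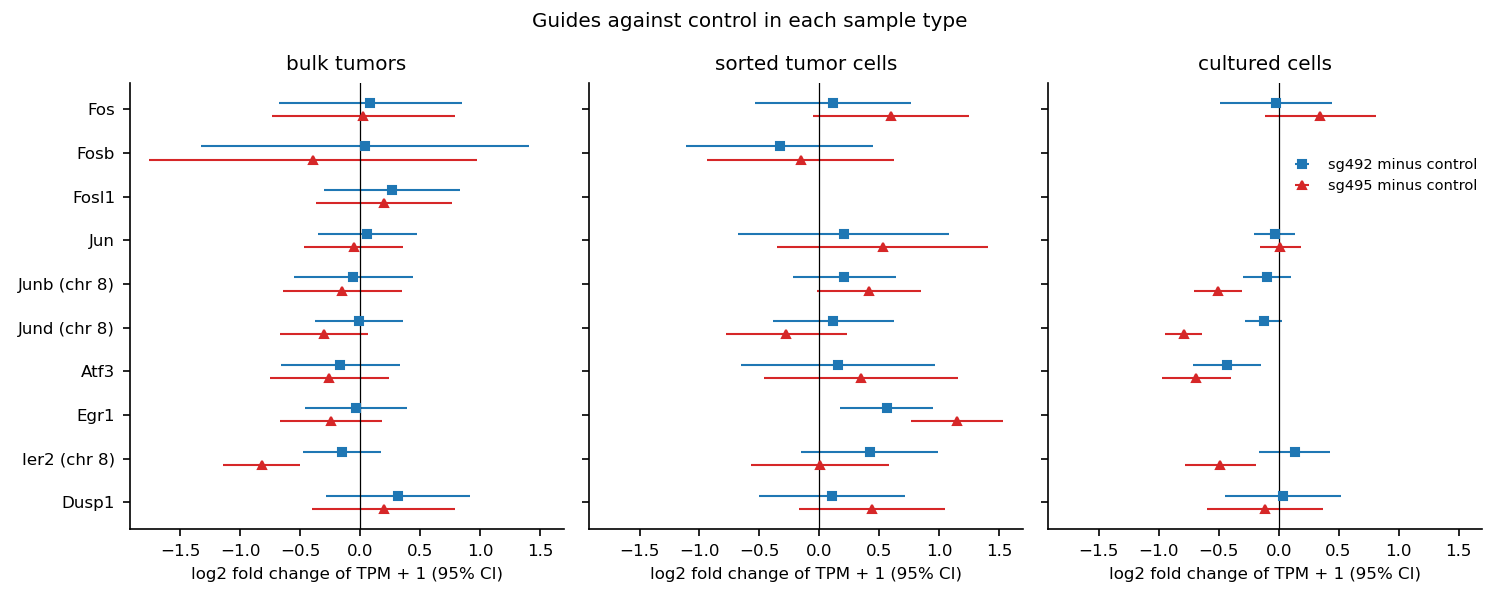
Difference in log2(TPM + 1) between each guide and control by sample type, with 95% confidence intervals; squares are sg492 and triangles sg495, and members that did not pass the filter have no point. Egr1 with sg495 in sorted cells (1.15) and Jund and Atf3 with sg495 in cultured cells (-0.79 and -0.69) are the 3 calls.

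In bulk tumors no member of 10 was called by limma with sg495, where 0.0293% of 13639 genes were. An unadjusted limma p below 0.05 was reached by 2135 of those genes and by 1 member. That was Ier2, at 42.17 and 48.26 TPM in control and 25.44 and 24.72 TPM with sg495, a difference of -0.82 ± 0.13 (limma adjusted p = 0.0879). Counted from the lowest, it ranked 5 among 717 chromosome 8 genes, where Nr2f6 itself ranked 23, and the difference was called when all 18 libraries shared 1 estimate of the spread (limma adjusted p = 0.0348). After subtraction of the chromosome 8 median, Ier2 differed by -0.57, which is under the fold threshold. The summed leukocyte markers of these libraries were 627 and 461 TPM in control and 922 and 1002 TPM with sg495, and their part was not tested. The difference of Fos was 0.03 with an interval from -0.74 to 0.79, and that of Fosb was -0.39 with an interval from -1.76 to 0.97.

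No member was called by limma with sg492 in bulk tumors, sorted cells or cultured cells, where 0.0%, 0.0388% and 0.05% of genes were. An unadjusted limma p below 0.05 was reached by 1132 of 13639, 920 of 12899 and 1265 of 12007 genes. Among the members it was reached by 0 of 10, 1 of 9 and 1 of 7. The pair were Egr1 in sorted cells, given above, and Atf3 in cultured cells, at 14.59 and 12.06 TPM, a difference of -0.43 ± 0.12 from control (limma adjusted p = 0.321). Of the listed pathway genes, none was called with either guide in bulk tumors or sorted cells, nor with sg492 in cultured cells. With sg495 in cultured cells, where 2.77% of all genes were called, Ier3 (-1.43), Nfkbiz (-0.68) and Batf (-0.66) were called lower, and Ccnd1 (0.93) and Ctgf (0.64) higher.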

How the data were processed

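RNA of 18 libraries was used, 2 each of control, sg492 and sg495 in each of 3 sample types (cultured cells, bulk tumors and sorted tumor cells); groups came from the sample titles. The authors prepared poly(A) libraries read from a single end, trimmed reads with cutadapt 2.3, aligned them to mm10 with STAR 2.7.0d, quantified genes with RSEM 1.3.1 and deposited TPM to 2 decimals. Their own test used estimated counts, which were not used here, so limma replaced it.

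TPM were analysed as log2(TPM + 1) without further scaling. The filter kept genes whose mean was 1 TPM or more, over 18 libraries for sample types and for differences of guide effects between them, and over the 6 libraries of a sample type for guides. The limma model (version 3.58.1, R 4.3.3) gave each group its own mean, moderated variances with a trend, and was tested on simulated data with 200 changed genes. P-values were 2-sided and adjusted by the Benjamini-Hochberg method over all genes. Calls needed a fold change of 1.5 or more beside an adjusted p under 0.05. Ratios used exact permutation tests in scipy 1.17.1, and a symbol held by more than 1 gene was taken at its first row.

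The 10 members, the gene lists and the tests were chosen with earlier results of these data known. From a list, called genes were named, up to the 6 largest, and any other gene is said to have been named after its values were seen. Promoter windows came from RefSeq on GRCm38.p6 and positions from GENCODE M21 on GRCm38. Alternatives were a pseudocount of 0.1, no filter, a mean of 5 TPM, median-of-ratios scaling, quantile normalization, no trend, no fold threshold, a replicate block, other sets of libraries in the fit, centering of chromosome 8 and leaving out each library. A further 5 libraries, labelled IgG_Control or anti-PD1, entered no comparison. One of the genes most correlated with Jun is not reported here.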

Additional observations from a re-analysis of the deposited data

Results flagged for a closer look

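The sg495 effect on Egr1 differed between sample types in the test of the difference itself. It was higher in sorted tumor cells than in bulk tumors by 1.39 (limma adjusted p = 0.0483) and than in cultured cells by 1.08 (limma adjusted p = 0.0269) on the log2 scale. Both sg495 libraries lay above both controls in sorted cells, as in 17.9% of all genes, and overlapped them in bulk tumors and cultured cells. Both tests share the 4 sorted libraries. The first call held in 9 of 27 alternatives and the second in 20 of 27, and the call in sorted cells alone was lost when any sorted library was left out. In cultured cells Egr1 was at or below 0.32 TPM, where the added 1 TPM holds its guide effect near 0 (limma adjusted p = 0.215 with 0.1 TPM added).

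The 5 libraries outside the comparisons, 2 labelled IgG_Control and 3 labelled anti-PD1, come from unedited B16F10, and their labels name no sample type. In 8 of the 10 members all 5 lay above all 6 bulk tumors, as did 13.5% of 13892 genes. The lowest of the 5 was 57.93 TPM for Fos (highest bulk tumor 27.44), 1.88 TPM for Fosl1 (1.7), 82.62 TPM for Jun (20.04), 106.99 TPM for Junb (34.56), 32.37 TPM for Jund (23.91), 115.03 TPM for Atf3 (35.97), 10 TPM for Egr1 (9.78) and 36.13 TPM for Dusp1 (14.66). Junb reached 315 TPM in these libraries, above the highest sorted library at 78.11 TPM. Fosb, the member that differed most between sorted cells and bulk tumors, ranged from 1.69 to 2.75 TPM and overlapped the bulk tumors, and Ier2 ranged from 34.92 to 54.42 TPM. The difference from bulk tumors was not tested.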

How the results depend on the processing

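All 9 tested members stayed called higher in sorted tumor cells than in bulk tumors and in cultured cells under all 29 alternatives, also with each library left out (9 to 9). Between bulk tumors and cultured cells 6 to 7 were called with a library left out. With sg495 in bulk tumors, 1 member (Ier2) was called when 18 libraries entered the fit and 0 to 0 with a library left out. In sorted cells the call on Egr1 gave 0 members with no filter, without a trend, with 4 libraries in the fit and with any library left out (0 to 0). In cultured cells 1 member was called with no filter, with 18 libraries in the fit and with chromosome 8 centered, and 1 to 2 with a library left out. The sg495 difference between sorted cells and bulk tumors gave 0 with a pseudocount of 0.1 (limma adjusted p of Egr1 0.142), median-of-ratios scaling (0.0507) and the replicate block (0.0924), and 0 to 1 with a library left out; that between sorted and cultured cells gave 0 with a pseudocount of 0.1 and with no filter, and 0 to 3 with a library left out, where Junb (up to 1.2) and Ier2 (0.88) joined or Egr1 dropped out. The cause of these changes was not tested. With sg492 no alternative gave a call.

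Same-numbered libraries did not deviate together (r from -0.129 to 0.0387 over 9 pairs of groups), so the numbers were not taken as pairs. The replicate block left the count of members called as it was in the other comparisons. Quantile normalization lowered the median of all genes to -0.11 between bulk tumors and cultured cells and turned the split of higher and lower calls over all genes from 2079 and 520 to 1314 and 1711, and between sorted cells and bulk tumors from 567 and 1218 to 1384 and 946. The calls over all genes with sg495 in sorted cells, 116, ran from 3 with no filter to 399 with 18 libraries in the fit, and those in bulk tumors, 4, from 0 to 395 under the same settings. TPM carry no depth, and 2 libraries per group limit the precision.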
